A study of Mus musculus with 21 samples.

Results

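The genes described here encode 5 subunits of the phagocyte NADPH oxidase, Cybb, Cyba, Ncf1, Ncf4 and Rac2, taken by gene symbol from the 3 expression tables of the series. All 5 had a row in every table and passed the filter on low values in every table, out of 16782 gene symbols over the 3 tables. The phagocyte oxidase passes electrons from cytosolic NADPH across the membrane to oxygen and so makes superoxide, which myeloid cells use to kill ingested microbes and in signalling. Its catalytic core is a membrane pair, gp91phox (Cybb), which carries the haem and flavin groups, and p22phox (Cyba), which stabilises it. In resting cells p47phox (Ncf1) and p40phox (Ncf4) sit in the cytosol as part of a complex, and on activation they move to the membrane together with the GTPase Rac2, whose expression is largely restricted to blood cells. Several of these genes are switched on as myeloid progenitors mature, and inherited loss of the core subunits or of p47phox causes chronic granulomatous disease.

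The libraries were bulk RNA sequencing of mouse acute myeloid leukaemia (AML) cells, in 8 groups and 21 libraries. Cells carrying the fusion oncogene NUP98-NSD1 were treated for 4 days with DMSO (n = 3) or with 3 µM of UNC1999 (n = 3) or JQEZ5 (n = 3), 2 inhibitors of EZH2, the methyltransferase subunit of Polycomb repressive complex 2 (PRC2). The same type of cell was infected with pLKO.1-puro lentivirus, either empty (shEV, n = 3) or with a hairpin against Kdm5b (shKdm5b, n = 3), and selected in puromycin. Cells carrying the fusion oncogene MLL-AF9 received MSCV-neo retrovirus, either empty (EV, n = 2) or with Kdm5b as wild type (WT, n = 2) or with the mutation H499A (n = 2), which removes its demethylase activity. All were established lines grown with stem cell factor, both fusions were introduced with a flag tag, and each experiment used 1 fusion. The labels do not say whether libraries of a group came from separate cultures, so p-values measure the spread between libraries, which may be technical. They also do not say which promoter drove a fusion, how many hairpins were used or from which species the introduced Kdm5b came.

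Cybb lies on chromosome X at 9435252 to 9487771, Cyba on chromosome 8 at 122424776 to 122432930 and Ncf1 on chromosome 5 at 134220053 to 134229625, all on the minus strand (GRCm38, GENCODE M21). Ncf4 on the plus strand (78244801 to 78262580) and Rac2 on the minus strand (78559167 to 78572783) are on chromosome 15, with 296586 bases between them. RefSeq promoter sequence (GRCm38.p6) was matched for Cybb, Cyba and Ncf1, and the 150 bases before each RefSeq start are given here because these 3 genes did not move alike. For Cybb the RefSeq start lies inside the GENCODE gene span given above, which reaches further upstream, so the stretch printed is the one before that internal start. Capitals mark matches on either strand to the GAAA repeat (GAAA followed after any 2 bases by GAAA again, a pattern of the kind that interferon regulatory factors bind) or to the CCAAT box.
Cybb, chrX:9469325-9469474, minus strand: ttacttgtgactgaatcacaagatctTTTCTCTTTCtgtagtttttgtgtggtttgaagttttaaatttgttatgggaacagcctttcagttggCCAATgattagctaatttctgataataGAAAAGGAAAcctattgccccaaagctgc
Cyba, chr8:122432941-122433090, minus strand: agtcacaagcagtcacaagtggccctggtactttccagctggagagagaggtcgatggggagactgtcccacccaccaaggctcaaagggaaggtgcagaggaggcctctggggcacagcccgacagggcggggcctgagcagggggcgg
Ncf1, chr5:134229626-134229775, minus strand: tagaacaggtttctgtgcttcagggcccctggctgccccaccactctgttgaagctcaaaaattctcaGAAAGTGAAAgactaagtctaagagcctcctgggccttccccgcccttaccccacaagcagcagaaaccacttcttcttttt
The Cybb stretch holds a CCAAT box at 56 to 52 bases before the start and a GAAA repeat at 29 to 20 bases and, on the other strand, at 124 to 115 bases. A further GAAA repeat on the other strand lies at 168 to 159 bases, outside the printed stretch. The Ncf1 stretch holds a GAAA repeat at 82 to 73 bases. In the 250 bases before the Cyba start neither pattern was matched. Searches of both strands for GAGGAA, a core of sites for the factor PU.1, found no match in any of the 3 promoters. Searches for the TATA box, written as TATAAA, also found none there. Over the 250 bases before the start of 32851 promoters, the GAAA repeat was present in 2.98% and the CCAAT box in 33.8%. GAGGAA was present in 23.3% of these promoters and the TATA box in 12.4%. None of the 4 patterns overlaps another in the printed matches. GC content of the printed stretches was 35.3% for Cybb, 64.7% for Cyba and 50.7% for Ncf1.

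The recovered depth was 12812650 to 18928760 reads per library in the inhibitor table, 21273210 to 34813870 in the knockdown table and 17341260 to 19973220 in the overexpression table. Levels are given as normalised read counts within each table, so they are comparable between libraries of 1 table and not between tables. Kdm5b, the targeted demethylase gene, was at 61.6, 94.8 and 67.0 normalised counts in shEV and at 34.1, 28.8 and 23.2 in shKdm5b, under the filter and so without a test. It was at 114 and 128 in EV, 1410 and 1416 in WT, and 309 and 279 in H499A. Every library thus lay on the side of its control that its label gives, and Kdm5b was 4.80-fold higher in WT than in H499A. In the inhibitor table Kdm5b was at 624, 595 and 604 in DMSO, 875, 903 and 880 in UNC1999, and 666, 658 and 649 in JQEZ5. All treated libraries there were above all DMSO libraries. Between libraries of 1 group the chi-square over genes, divided by its degrees of freedom, ran from 1.53 to 9.52, except for both pairs that hold shKdm5b 1, which were higher and reached 17.3 against shKdm5b 2. Of 10 markers of leukaemic myeloid progenitors, 9 or 10 had a row in each table. Cd34 had no row in the inhibitor table, and was at 24.5 to 29.6 normalised counts in shEV and 9.56 to 21.1 in shKdm5b. No listed marker of any cell type with a row was at 0 in every library of its table, so that check does not tell cell types apart. In bulk samples fewer cells of a type and less RNA per cell cannot be told apart.

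**Figure D1:**
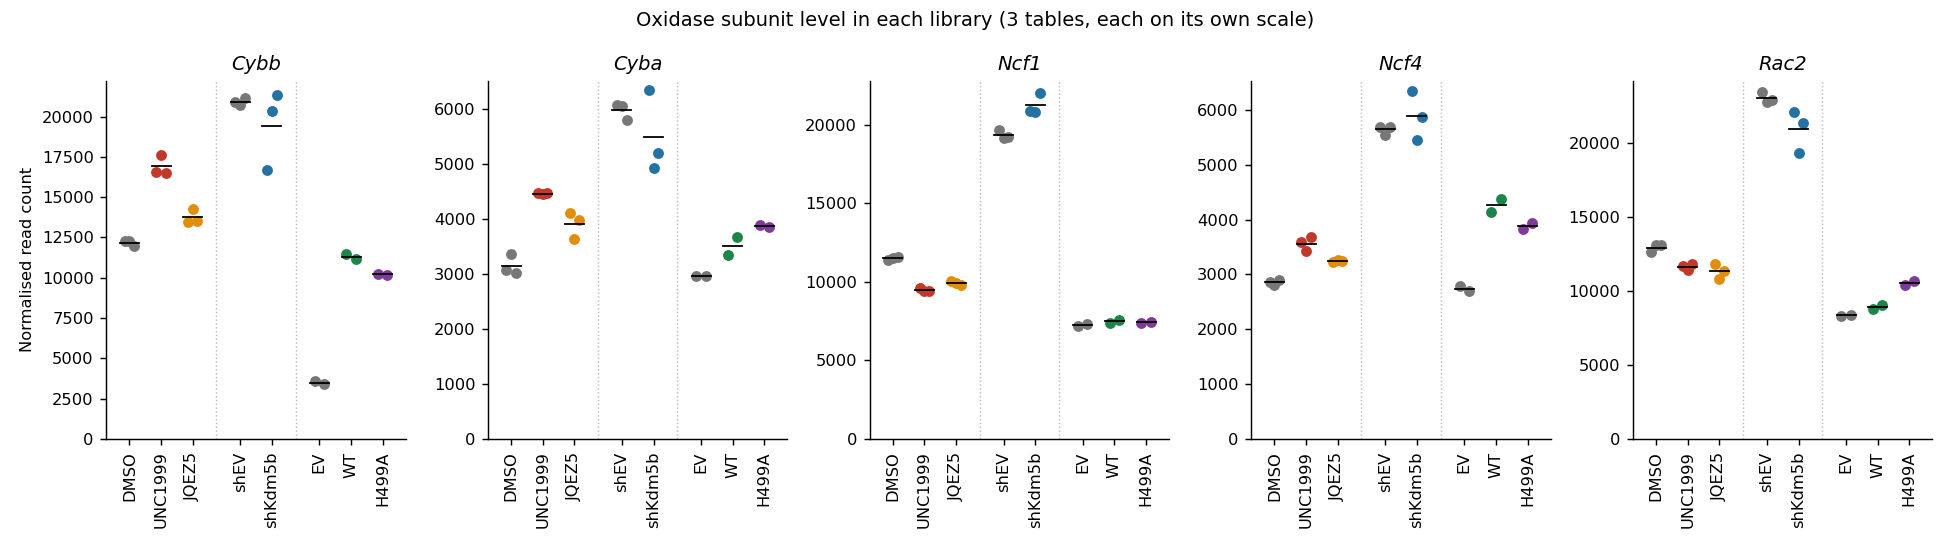
Normalised read count of Cybb, Cyba, Ncf1, Ncf4 and Rac2 in each of 21 libraries, 1 panel per gene, with points for libraries and a line for the group mean; dotted lines separate the 3 tables, each on its own scale. Cybb in the 2 EV libraries sits at 3567 and 3386, below all 4 libraries with introduced Kdm5b, while Ncf1 is nearly level across the same 6 libraries.

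Per transcript length the mean levels of the 5 subunits lay between 129 and 281 in DMSO cells, and between 39.1 and 213 in the MLL-AF9 cells with empty vector, where Cybb was the lowest. Levels between genes are compared here as RPKM, reads per kilobase of the longest principal coding transcript scaled to library depth, and the order depends on that choice of transcript. In DMSO libraries Rac2 was at 281 ± 4.98, Cyba at 279 ± 16.6 and Ncf1 at 279 ± 1.32 RPKM (mean ± SD, n = 3), and these 3 did not differ beyond their spread. Cybb followed at 169 ± 3.13 and Ncf4 at 129 ± 1.36 on the same scale. With UNC1999 Cyba led at 379 ± 2.34, Rac2 followed at 242 ± 5.20, Cybb at 225 ± 8.79 and Ncf1 at 220 ± 0.778 were not separated, and Ncf4 was at 154 ± 5.81. With JQEZ5 Cyba led at 339 ± 20.4, Rac2 at 241 ± 9.80 and Ncf1 at 236 ± 2.84 were not separated, and Cybb at 187 ± 6.64 and Ncf4 at 143 ± 1.47 followed. The inhibitor-treated cells thus had Cyba apart from Rac2 and Ncf1, which DMSO cells did not.

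In shEV the order was Cyba (272 ± 7.11 RPKM), Rac2 (257 ± 3.69), Ncf1 (241 ± 3.06), Cybb (149 ± 1.49) and Ncf4 (131 ± 1.76), each separated by more than the SDs. In shKdm5b the spread was wide: Cyba at 251 ± 31.9 overlapped with both Ncf1 at 267 ± 10.6 and Rac2 at 235 ± 15.1, while every Ncf1 library was above every Rac2 library. Cybb at 140 ± 18.9 and Ncf4 at 137 ± 9.27 also overlapped there. In the MLL-AF9 cells with empty vector Cyba was at 213 ± 0.356, Rac2 at 147 ± 0.672, Ncf1 at 143 ± 1.88, Ncf4 at 100.1 ± 2.82 and Cybb at 39.1 ± 1.50 (n = 2). With WT Kdm5b Cyba was at 257 ± 17.9, Rac2 at 160 ± 4.03 and Ncf4 at 159 ± 7.05 were not separated, and Ncf1 at 150 ± 3.10 and Cybb at 130 ± 1.77 followed. With H499A Cyba was at 280 ± 1.74, Rac2 at 187 ± 3.64, Ncf1 at 147 ± 0.666, Ncf4 at 143 ± 2.88 and Cybb at 116 ± 0.566. Cybb was the lowest of the 5 in all 3 overexpression groups, and Ncf4 the lowest in the other 5 groups, with Cybb within the spread of it in shKdm5b.

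The catalytic subunit made up 6.10% ± 0.221 of the summed length-scaled level of the 5 genes in EV, 15.2% ± 0.746 in WT and 13.3% ± 0.139 in H499A. In the NUP98-NSD1 cells its share was 14.9% ± 0.273 in DMSO, 18.4% ± 0.742 in UNC1999, 16.3% ± 0.902 in JQEZ5, 14.2% ± 0.251 in shEV and 13.6% ± 2.08 in shKdm5b. The ratio of Cybb to Cyba, the membrane pair, was 0.184 ± 0.00737 in EV, 0.506 ± 0.0422 in WT and 0.414 ± 0.000547 in H499A. In DMSO, UNC1999 and JQEZ5 that ratio was 0.606 ± 0.0293, 0.594 ± 0.0236 and 0.554 ± 0.0545, differences within the spread. Its mean was 0.548 ± 0.0199 in shEV and 0.568 ± 0.135 in shKdm5b. The ratio of Ncf1 to Ncf4, both of the cytosolic complex, was 2.17 ± 0.0312 in DMSO, 1.43 ± 0.0529 in UNC1999 and 1.65 ± 0.0312 in JQEZ5. It was 1.84 ± 0.0254 in shEV and 1.95 ± 0.153 in shKdm5b, and 1.43 ± 0.0588 in EV, 0.944 ± 0.0223 in WT and 1.03 ± 0.0160 in H499A.

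**Figure D2:**
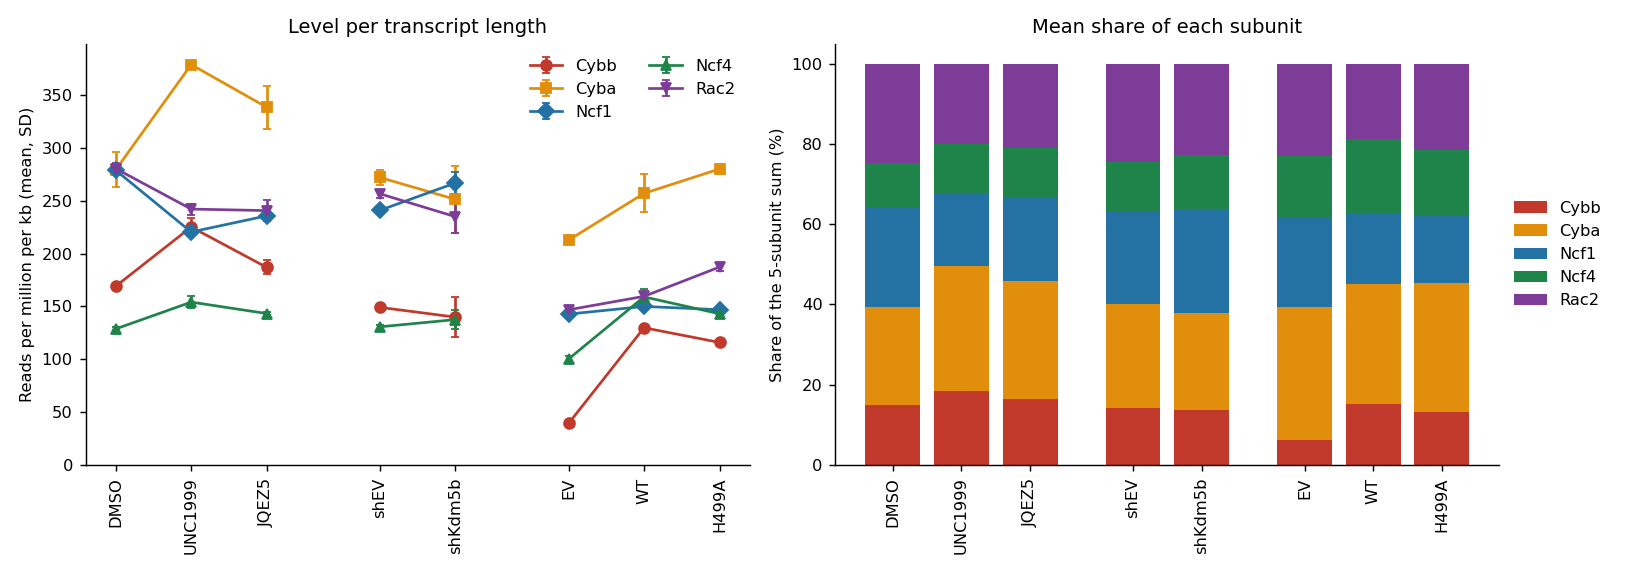
Left, mean and SD of the depth-scaled reads per kilobase (RPKM) of each subunit in the 8 groups; right, each subunit's mean share (%) of the 5-subunit sum. The red share of Cybb is 6.10% in EV and between 13.3% and 18.4% in the other 7 groups, and lines join groups of 1 table only.

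With UNC1999 the membrane pair and Ncf4 rose, by 1.25-fold to 1.41-fold, and Ncf1 and Rac2 fell. JQEZ5, read against the same DMSO libraries, raised Cybb, Cyba and Ncf4 by 1.13-fold to 1.24-fold and lowered Ncf1 and Rac2. UNC1999 called 5 of the 5 (3 higher and 2 lower) against a background of 47.9% of all tested genes called in either direction, 23.9% higher and 24% lower. JQEZ5 also called 5 (3 higher and 2 lower), against 23.6% of all tested genes in either direction, 13.1% higher and 10.5% lower. No member overlapped with DMSO in any library of either compound. The share of all tested genes without overlap is not given here, so this separation does not set the members apart.

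Cybb, the catalytic subunit, was at 12287, 12266 and 11969 normalised counts in DMSO, 16587, 17633 and 16492 in UNC1999, and 13441, 14280 and 13530 in JQEZ5. The 3 groups did not overlap, and JQEZ5 lay between DMSO and UNC1999. Cybb rose 1.39-fold with UNC1999 (log2 change 0.47 ± 0.03 SE, 95% interval 0.40 to 0.53, limma adjusted p = 7.93e-09) and 1.13-fold with JQEZ5 (0.17, interval 0.10 to 0.24, adjusted p = 0.000896). Cyba, the stabilising partner, was at 3075, 3354 and 3018 in DMSO, 4462, 4443 and 4460 in UNC1999, and 4099, 3629 and 3971 in JQEZ5. The UNC1999 libraries were tightly grouped above all others, and JQEZ5 again lay between. Cyba rose 1.41-fold with UNC1999 (0.47 ± 0.04 SE, interval 0.38 to 0.56, adjusted p = 2.36e-07) and 1.24-fold with JQEZ5 (0.29, interval 0.20 to 0.38, adjusted p = 0.000131).

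Ncf1, the organiser that binds p22phox once phosphorylated, was at 11412, 11533 and 11557 normalised counts in DMSO, 9584, 9435 and 9415 in UNC1999, and 10062, 9915 and 9804 in JQEZ5. Every treated library was below every DMSO library. Ncf1 fell by 17.6% with UNC1999 (log2 change -0.27 ± 0.02 SE, interval -0.33 to -0.22, limma adjusted p = 2.17e-07) and to 0.863 of DMSO with JQEZ5 (-0.21, interval -0.26 to -0.16, adjusted p = 1.37e-05). Ncf4, whose product binds phosphatidylinositol 3-phosphate on the phagosome, was at 2857, 2815 and 2890 in DMSO, 3597, 3419 and 3674 in UNC1999, and 3219, 3272 and 3245 in JQEZ5. It thus went the opposite way to Ncf1, its partner in the cytosolic complex, in all 6 treated libraries. Ncf4 rose 1.25-fold with UNC1999 (0.30 ± 0.03 SE, interval 0.23 to 0.37, adjusted p = 1.19e-06) and 1.14-fold with JQEZ5 (0.17, interval 0.11 to 0.24, adjusted p = 0.000778). Rac2, the GTPase, was at 12617, 13060 and 13061 in DMSO, 11676, 11372 and 11823 in UNC1999, and 11785, 10818 and 11353 in JQEZ5. All treated libraries were below all DMSO libraries. Rac2 fell by 9.98% with UNC1999 (-0.15 ± 0.03 SE, interval -0.22 to -0.08, adjusted p = 0.00114) and to 0.877 of DMSO with JQEZ5 (-0.19, interval -0.25 to -0.12, adjusted p = 0.000434).

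At the matched concentration and time, the 1 pair of compounds differed in the size of the response for the 3 genes that rose, with UNC1999 above JQEZ5. Of the 5 genes 3 were called higher and 0 lower, against 36.4% of all tested genes in either direction, 18.7% higher and 17.7% lower. UNC1999 exceeded JQEZ5 1.23-fold for Cybb (log2 difference 0.29, interval 0.23 to 0.36, limma adjusted p = 4.37e-06), 1.14-fold for Cyba (0.18, interval 0.09 to 0.28, adjusted p = 0.00345) and 1.10-fold for Ncf4 (0.13, interval 0.06 to 0.19, adjusted p = 0.00526). Ncf1 was lower in all 3 UNC1999 libraries than in all 3 JQEZ5 libraries, and the difference missed the threshold (-0.07, interval -0.12 to -0.01, adjusted p = 0.0501). It passed under 5 of the alternatives, with an adjusted p of 0.0131 after quantile normalisation. Rac2 overlapped between the compounds, and its difference of 0.04 had an interval of -0.03 to 0.11 (adjusted p = 0.374).

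Knockdown of Kdm5b gave differences of at most 0.14 log2 units in the oxidase genes, 4 of them not called. Of the 5, 1 was called higher (Ncf1) and 0 lower, against 32.5% of all tested genes in either direction, 15% higher and 17.4% lower. Cybb was at 20878, 20696 and 21165 normalised counts in shEV and at 16678, 20334 and 21310 in shKdm5b. Cyba was at 6072, 6052 and 5801 in shEV and at 6333, 4914 and 5192 in shKdm5b. In both genes the library shKdm5b 1 stood on the other side of the other 2, lowest for Cybb and highest for Cyba, and the groups overlapped. The log2 change was -0.11 ± 0.08 SE for Cybb (interval -0.30 to 0.07, limma adjusted p = 0.328) and -0.13 ± 0.08 SE for Cyba (interval -0.31 to 0.06, adjusted p = 0.262). Leaving out shKdm5b 3 moved Cybb to -0.18, and leaving out shKdm5b 2 moved Cyba to -0.06, neither called.

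Ncf1 was at 19647, 19186 and 19222 normalised counts in shEV and at 20897, 20834 and 22045 in shKdm5b, with no overlap. It rose 1.10-fold (log2 change 0.13 ± 0.04 SE, interval 0.03 to 0.23, limma adjusted p = 0.0463), a call that was lost when any 1 shEV library or shKdm5b 3 was left out (adjusted p up to 0.173). Ncf4 was at 5691, 5549 and 5698 in shEV and at 6346, 5459 and 5880 in shKdm5b, where it overlapped (0.06 ± 0.05 SE, interval -0.07 to 0.18, adjusted p = 0.461). That value was 0.0048 without shKdm5b 1 and 0.11 without shKdm5b 2. Rac2 was at 23409, 22755 and 22879 in shEV and at 22097, 19290 and 21328 in shKdm5b. All 3 knockdown libraries were lower for Rac2, and the difference missed the threshold (-0.14 ± 0.06 SE, interval -0.27 to -0.01, adjusted p = 0.0894, or -0.08 without shKdm5b 2). Without shKdm5b 1, the library that stood apart, 3 of the 5 genes were called: Ncf1 higher (0.14, adjusted p = 0.00688), and Cyba (-0.23, adjusted p = 0.000742) and Rac2 (-0.18, adjusted p = 0.00764) lower. Cybb was then at -0.01 (adjusted p = 0.883), and the number of all genes called went from 3509 to 5556. Single markers of other lineages changed far more in the same libraries. Mcpt8, a basophil protease, rose 36.7-fold, from 72.0 to 2644 normalised counts (adjusted p = 1.04e-08), and Igll1, a surrogate light chain of B cell precursors, rose 53.2-fold, from 11.8 to 630 (adjusted p = 4.11e-07). Of 2 tested eosinophil, basophil and mast cell markers 1 was called higher and 0 lower, and of 2 tested B cell markers 1 higher and 1 lower. The lower B cell marker, Cd79b, fell to 0.210 of shEV, from 332 to 69.7 (limma adjusted p = 1.06e-05). The summed level was 204 to 238 in shEV and 2626 to 2971 in shKdm5b for the first list, and 313 to 385 and 656 to 803 for the second. Their part in the knockdown values of the oxidase genes was not tested.

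In MLL-AF9 cells with introduced Kdm5b, Cybb, Cyba, Ncf4 and Rac2 were higher than with empty vector, Cybb by the most. The values for the wild type and for the mutant without demethylase activity are set side by side. WT Kdm5b called 4 of 5 higher and 0 lower, against 62.2% of all tested genes in either direction, 29.8% higher and 32.4% lower. H499A called 4 of 5 higher and 0 lower, against 49.6% in either direction, 22.7% higher and 26.9% lower. Both comparisons use the same 2 EV libraries.

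Cybb was at 3567 and 3386 normalised counts in EV, 11453 and 11151 in WT, and 10249 and 10173 in H499A. The 4 libraries with introduced Kdm5b were far above EV and formed 2 separate levels. Cybb rose 3.25-fold with WT (log2 change 1.56 ± 0.03 SE, interval 1.51 to 1.61, limma adjusted p = 1.38e-25) and 2.94-fold with H499A (1.42, interval 1.37 to 1.47, adjusted p = 1.22e-24). On the variance-stabilised scale the log2 change of Cybb ranked 5 from the top of 9458 tested genes with WT and 9 with H499A. These are not ranks by fold. The formyl peptide receptor genes Fpr2 and Fpr1 rose 7.35-fold with WT and 9.36-fold with H499A, at smaller log2 changes of 1.25 and 0.78. Cyba was at 2952 and 2965 in EV, 3344 and 3664 in WT, and 3883 and 3847 in H499A. The WT libraries were spread and lay between the other groups. Cyba rose 1.18-fold with WT (0.21, interval 0.15 to 0.27, adjusted p = 1.31e-06) and 1.31-fold with H499A (0.33, interval 0.27 to 0.39, adjusted p = 5.7e-10).

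Ncf1 was at 7185 and 7334 normalised counts in EV, 7397 and 7559 in WT, and 7388 and 7432 in H499A. It was the 1 subunit with no call in either comparison, at a log2 change of 0.04 with WT (interval -0.01 to 0.09, limma adjusted p = 0.146) and 0.03 with H499A (interval -0.02 to 0.08, adjusted p = 0.347). After quantile normalisation, which moved the value more than 1.5 times, the WT change was 0.10 with an adjusted p of 0.00174. Ncf4 was at 2792 and 2689 in EV, 4148 and 4383 in WT, and 3828 and 3937 in H499A. It was the second most increased of the 5 with either form. Ncf4 rose 1.56-fold with WT (0.55, interval 0.49 to 0.61, adjusted p = 3.58e-15) and 1.42-fold with H499A (0.43, interval 0.37 to 0.49, adjusted p = 1.03e-12). Rac2 was at 8300 and 8370 in EV, 8756 and 9007 in WT, and 10407 and 10691 in H499A. The 3 groups did not overlap, with H499A highest. Rac2 rose 1.07-fold with WT (0.09, interval 0.04 to 0.13, adjusted p = 0.00275; 0.14 after quantile normalisation) and 1.27-fold with H499A (0.32, interval 0.27 to 0.37, adjusted p = 1.14e-11).

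WT and H499A differed directly, and not in 1 direction: WT was higher for Cybb and Ncf4 and lower for Cyba and Rac2. The 4 of 5 genes called (2 higher and 2 lower) stood against 54.4% of all tested genes in either direction, 28.2% higher and 26.3% lower. Cybb was 1.11-fold higher in WT (log2 difference 0.14, interval 0.09 to 0.19, limma adjusted p = 4.46e-05) and Ncf4 1.10-fold higher (0.12, interval 0.06 to 0.18, adjusted p = 0.000871). Cyba in WT was at 0.907 of H499A (-0.12, interval -0.19 to -0.06, adjusted p = 0.00107), a call that was lost without WT 1 (-0.07, adjusted p = 0.0529). Rac2 in WT was at 0.842 of H499A (-0.23, interval -0.28 to -0.19, adjusted p = 4.71e-09). For Ncf1 the difference was 0.01 (interval -0.04 to 0.06, adjusted p = 0.691). The H499A cells also held less Kdm5b RNA than the WT cells, as given above, so the mutation and the amount of Kdm5b cannot be told apart.

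**Figure D3:**
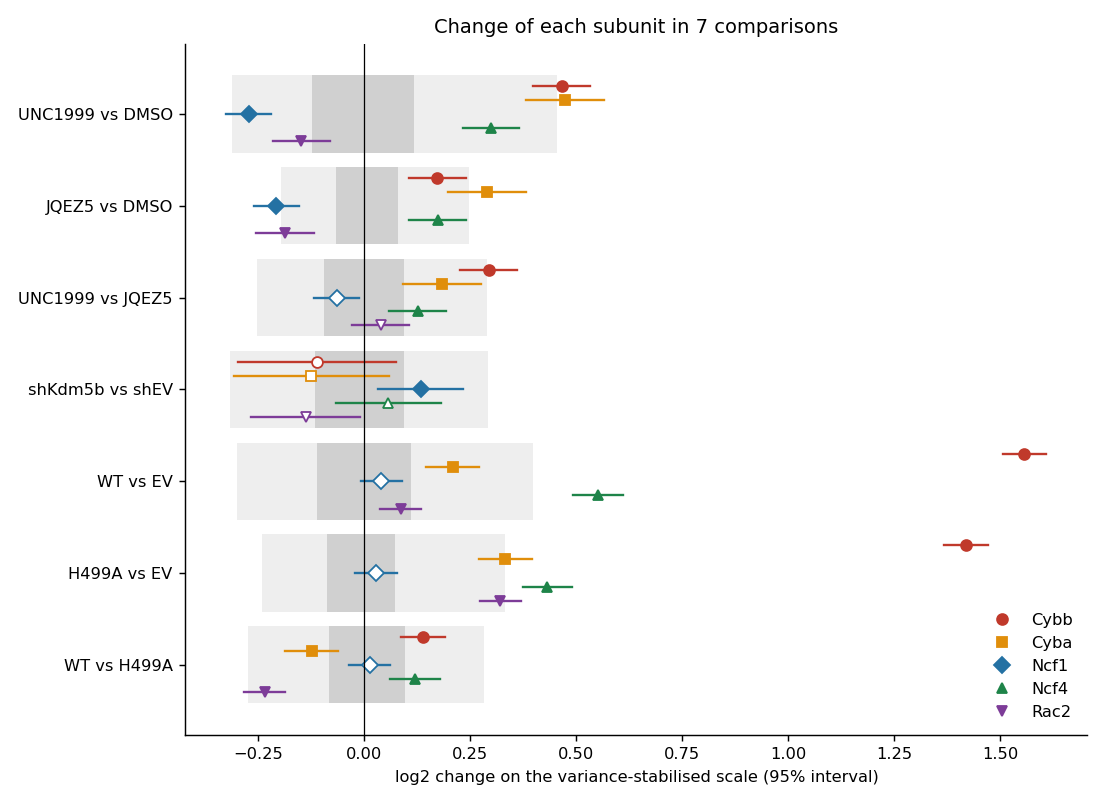
Log2 change on the variance-stabilised scale, with 95% intervals, for each subunit in 7 comparisons; filled symbols passed an adjusted p under 0.05, and grey bands span the middle 50% (dark) and 90% (light) of all tested genes. Cybb lies at 1.56 and 1.42 with introduced Kdm5b, outside the light band, while Ncf1 lies below 0 with both inhibitors and near 0 with introduced Kdm5b.

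Of the genes that work beside the core complex, 3 are described: Rac1, Rap1a, which copurifies with the flavocytochrome, and BC017643, the mouse gene for Eros, a chaperone of gp91phox. The counts of called genes here and in the lists that follow stand against the shares of all tested genes given above: 47.9% with UNC1999, 23.6% with JQEZ5, 32.5% in the knockdown, 62.2% with WT and 49.6% with H499A. Of these 3, 0 were called with UNC1999 or with JQEZ5, 2 were called higher and 1 lower in the knockdown, 1 higher and 0 lower with WT, and 0 higher and 1 lower with H499A. In the knockdown Rac1 rose 1.17-fold (log2 change 0.23, limma adjusted p = 0.00329) and BC017643 rose 1.14-fold (0.16, adjusted p = 0.0169), while Rap1a fell to 0.854 of shEV (-0.21, adjusted p = 0.0128). Without shKdm5b 1 these 3 kept their calls and directions, while 51.4% of all tested genes were then called. Of 9 other genes of the NOX and DUOX family, 1 had a row in the inhibitor table, 2 in the knockdown table and 3 in the overexpression table, and 0 passed the filter.

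Among the kinases, exchange factors and channels that regulate the oxidase, some were called higher and others lower in each comparison, in numbers that with UNC1999 were near the background. With UNC1999, 9 of 23 tested regulators were called higher and 4 lower (background 47.9% in either direction), with a median log2 change of 0.03 against -0.01 over all tested genes. Pik3r5, a regulatory subunit of PI3-kinase gamma, rose 2.52-fold (limma adjusted p = 1.83e-12), Prkcb, a protein kinase C that phosphorylates p47phox, rose 1.53-fold (adjusted p = 1.1e-08), Hvcn1, the voltage-gated proton channel, rose 1.39-fold (adjusted p = 1.63e-07) and Syk rose 1.32-fold (adjusted p = 5.87e-09). With JQEZ5, 5 were called higher and 4 lower (background 23.6%), among them Pik3r5 at 1.54-fold (adjusted p = 9.29e-08) and Prex1, an exchange factor for Rac, at 0.808 of DMSO (adjusted p = 2.67e-05). In the knockdown 2 of 23 were called higher and 9 lower (background 32.5%, median -0.08 against -0.01), or 5 higher and 11 lower without shKdm5b 1, and Pik3r5 (0.614 of shEV, adjusted p = 0.000102), Syk (0.721, adjusted p = 0.000176) and Prkcb (0.641, adjusted p = 0.000883) fell. With WT 11 of 24 were called higher and 6 lower (background 62.2%), and with H499A 13 higher and 5 lower (background 49.6%; medians 0.05 and 0.08 against -0.01 for each). Prkcb rose 4.69-fold with WT (adjusted p = 3.67e-22) and 2.76-fold with H499A (adjusted p = 2.41e-17), and Prkcd, another protein kinase C, rose 1.51-fold (adjusted p = 2.55e-16) and 1.36-fold (adjusted p = 1.86e-13). Dock2, a main exchange factor for Rac in leukocytes, fell to 0.550 of EV with WT (adjusted p = 6.67e-18).

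Receptors that trigger or prime the oxidase were mostly called higher with UNC1999, WT and H499A. The counts were 14 higher and 1 lower of 19 with UNC1999 (median log2 change 0.30 against -0.01 over all tested genes), 8 higher and 3 lower with JQEZ5 (0.03 against 0.01), and 7 higher and 5 lower of 18 in the knockdown (0.08 against -0.01; 7 and 7 without shKdm5b 1). They were 13 higher and 1 lower of 15 with WT (0.60 against -0.01) and 14 higher and 0 lower with H499A (0.43 against -0.01). Of all tested genes 23.9% were called higher with UNC1999, 13.1% with JQEZ5, 15% in the knockdown, 29.8% with WT and 22.7% with H499A. C5ar1, the receptor for the complement fragment C5a, rose 2.09-fold with UNC1999 (limma adjusted p = 5.39e-10). Itgam, the alpha chain of complement receptor CR3, rose 1.32-fold with UNC1999 (adjusted p = 2.88e-09), 2.04-fold with WT (adjusted p = 3.86e-22) and 1.63-fold with H499A (adjusted p = 2.25e-18). In the knockdown the Fc receptor gene Fcgr3 rose 2.88-fold (adjusted p = 2.2e-06), while Fpr1, the formyl peptide receptor, fell to 0.406 of shEV (adjusted p = 3.74e-06).

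Among transcription factors known from work on oxidase promoters, more were lower than higher with either inhibitor. With UNC1999, 3 of 16 were called higher and 9 lower (median log2 change -0.12 against -0.01 over all tested genes), and with JQEZ5 1 higher and 7 lower (-0.11 against 0.01). Of all tested genes 24% were called lower with UNC1999 and 10.5% with JQEZ5. Hoxa9 fell to 0.662 of DMSO with UNC1999 (limma adjusted p = 8.46e-09) and 0.746 with JQEZ5 (adjusted p = 1.45e-06). Cux1, a repressor described at the Cybb promoter, rose 1.32-fold (adjusted p = 1.75e-07) and 1.15-fold (adjusted p = 0.000542). In the knockdown 4 of 16 were called higher and 4 lower (-0.03 against -0.01; 5 and 5 without shKdm5b 1), and Irf8, which binds sites of the interferon-response type, rose 1.56-fold (adjusted p = 0.000177). With WT 10 of 17 were called higher and 6 lower (0.11 against -0.01), and Irf8 rose 1.60-fold (adjusted p = 9.72e-17) and Spi1, which encodes PU.1, rose 1.40-fold (adjusted p = 5.61e-13). With H499A 7 were called higher and 6 lower (-0.03 against -0.01), with Cebpb up 2.45-fold (adjusted p = 2.6e-19) and Cebpa at 0.400 of EV (adjusted p = 6.53e-20).

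Genes that remove superoxide and peroxide or use it numbered 19 tested in each table. They were called 7 higher and 7 lower with UNC1999, 6 and 2 with JQEZ5, 2 and 7 in the knockdown, 14 and 4 with WT, and 9 and 5 with H499A, against 47.9%, 23.6%, 32.5%, 62.2% and 49.6% of all tested genes in either direction. The medians were -0.03, 0.03, -0.15, 0.24 and 0.04, against -0.01, 0.01, -0.01, -0.01 and -0.01 over all tested genes. Sod2, the mitochondrial superoxide dismutase, rose 1.69-fold with UNC1999 (limma adjusted p = 4.4e-11) and 1.35-fold with JQEZ5 (adjusted p = 1.54e-07), and fell to 0.651 of shEV in the knockdown (adjusted p = 1.73e-05). Without shKdm5b 1 the knockdown counts were 3 higher and 13 lower. Catalase (Cat) fell to 0.639 of shEV in the knockdown (adjusted p = 3.49e-05) and rose 1.58-fold with WT (adjusted p = 9.67e-16). Enzymes that supply NADPH, the electron donor of the oxidase, were called 2 higher and 8 lower of 12 with UNC1999, 2 and 3 with JQEZ5, and 3 and 6 in the knockdown (3 and 8 without shKdm5b 1). Of 11 tested in the MLL-AF9 cells, 4 were called higher and 6 lower with WT, and 4 higher and 5 lower with H499A, against the same background shares. The medians for NADPH supply were -0.12, -0.05, -0.18, -0.11 and -0.01, against the same medians over all tested genes. G6pdx, the first enzyme of the pentose phosphate pathway, rose 1.48-fold with WT (adjusted p = 1.62e-15) and 1.21-fold with H499A (adjusted p = 4.87e-09).

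**Figure D4:**
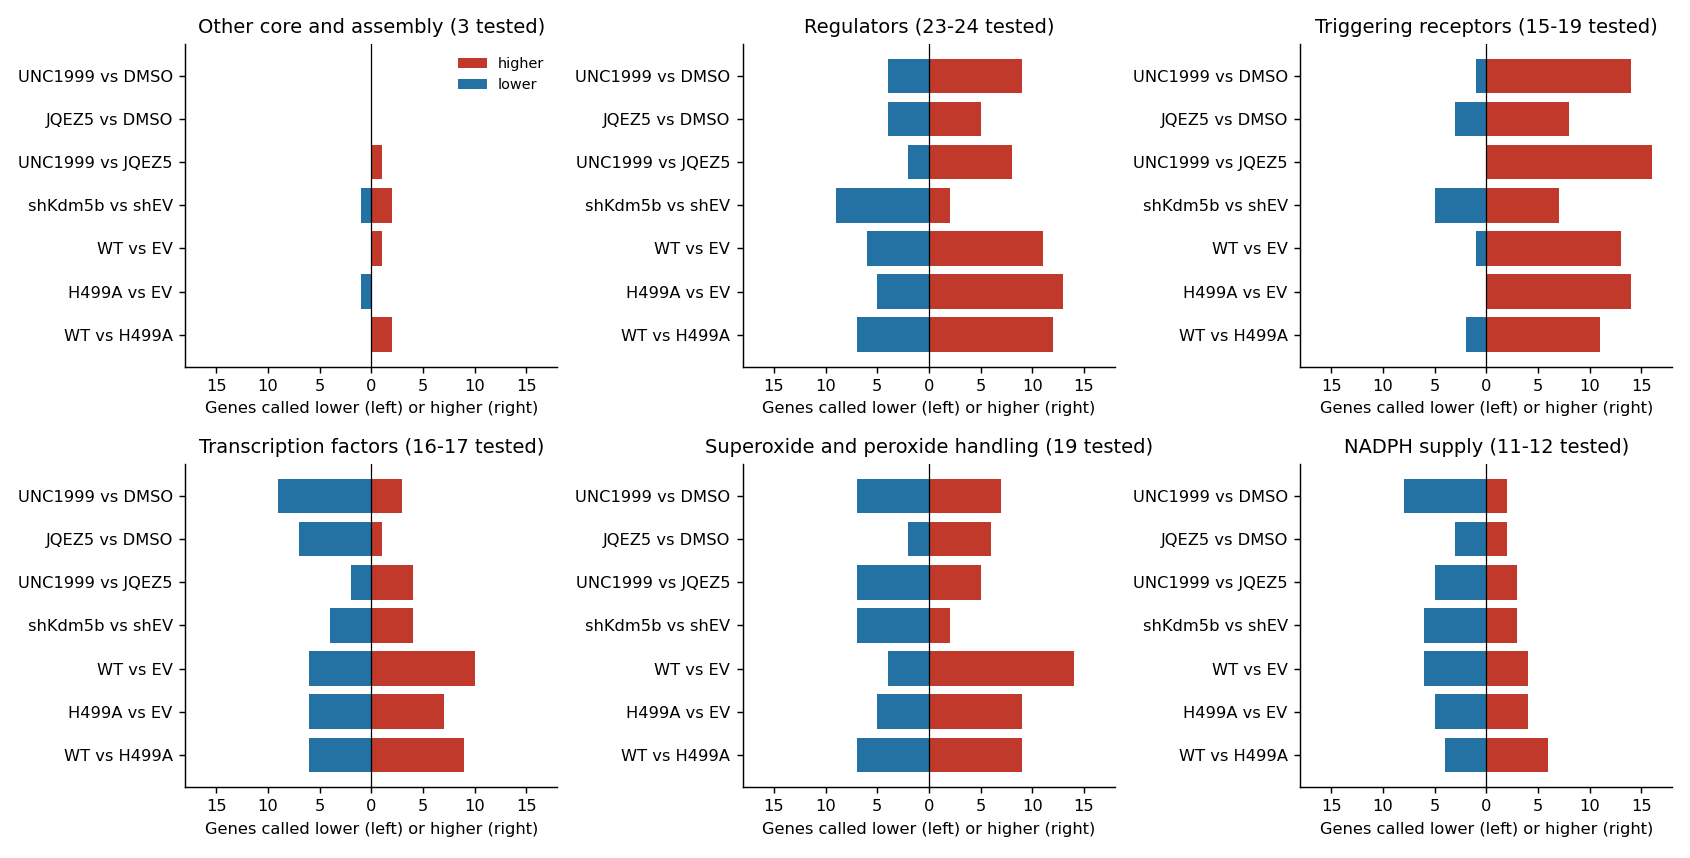
Number of genes called higher (right, red) and lower (left, blue) at a limma adjusted p under 0.05 in 6 lists of oxidase-related genes, for 7 comparisons; each panel title gives the number tested. Triggering receptors are mostly to the right of 0 with UNC1999, WT and H499A, and regulators are mostly to the left in the knockdown, 9 lower and 2 higher.

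Most tested markers of monocytes and macrophages were called higher with both inhibitors and with introduced Kdm5b, where Cybb, Cyba and Ncf4 rose. Of 18 tested markers of monocytes and macrophages, 16 were called higher and 1 lower with UNC1999 and 14 and 3 with JQEZ5, with median log2 changes of 1.16 and 0.59. Of 14 tested in the MLL-AF9 cells, 11 were called higher and 3 lower with WT, and 11 and 1 with H499A (medians 1.01 and 0.65). In the knockdown 5 of 18 were called higher and 9 lower (median -0.16), or 7 and 9 without shKdm5b 1. The summed level of these markers was 193113 to 195564 normalised counts in DMSO, 397716 to 410531 in UNC1999 and 292474 to 296823 in JQEZ5. It was 109724 to 111144 in shEV and 115078 to 122855 in shKdm5b, and 33003 to 34232 in EV, 74108 to 76001 in WT and 62261 to 62663 in H499A. The order of the groups by this sum within the inhibitor table and the overexpression table was the order of Cybb and of Ncf4. Cyba followed it in the inhibitor table, but in the overexpression table Cyba and Rac2 were highest in H499A. In the knockdown table the sum was higher in every shKdm5b library, although more of its markers were called lower than higher. There Cybb, at means of 20913 in shEV and 19441 in shKdm5b, did not follow the sum. Ncf4, at 5646 and 5895, overlapped between these groups, as did Cybb. Abundant members carried the sum: with UNC1999 the means were 152067 for Lyz2, 104438 for F13a1 and 69018 for Gpnmb. Not all members followed its order: F13a1 was at means of 10541 in EV, 8555 in WT and 16293 in H499A. Neutrophil and late granule markers summed to 12082 to 12233 in DMSO, 20920 to 21462 in UNC1999, 13931 to 14144 in JQEZ5, 9455 to 9943 in shEV and 11985 to 12222 in shKdm5b, and to 2365 to 2410 in EV, 5030 to 5240 in WT and 4484 to 4656 in H499A. Of 10 tested, 8 were called higher and 2 lower with UNC1999 (median log2 change 0.81) and 5 and 3 with JQEZ5 (0.14). In the knockdown 4 of 5 were called higher and 1 lower (0.38), and of 4 tested in the MLL-AF9 cells 3 and 1 with WT (0.62) and 4 and 0 with H499A (0.65). Members of this list went against its sum: Cxcr2, a chemokine receptor of neutrophils, was at a mean of 797 in DMSO, 181 in UNC1999 and 228 in JQEZ5. The calprotectin genes S100a8 and S100a9, higher with both inhibitors, were at means of 27.8 and 27.5 in EV, 10.9 and 7.16 in H499A, and at 0 in both WT libraries. Markers of eosinophils, basophils and mast cells were called lower with introduced Kdm5b, 3 of 3 tested with either form, with a summed level of 1826 to 1830 in EV, 1006 to 1076 in WT and 1086 to 1140 in H499A. The part of maturing cells in the change of the oxidase genes was not tested. Ncf1 and Rac2, which fell with both inhibitors, went against the marker sums there.

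Between Ncf4 and Rac2 on chromosome 15 lie 17 annotated genes, 10 of them protein coding, of which 4 were tested in the NUP98-NSD1 tables and 3 in the MLL-AF9 table. Csf2rb, the shared receptor chain for GM-CSF, and its neighbour Csf2rb2, the chain for IL-3, rose with UNC1999 1.66-fold (limma adjusted p = 4.13e-11) and 2.48-fold (adjusted p = 3.57e-13). All 4 tested genes of this interval were called higher with UNC1999 and 3 of 4 with JQEZ5. Rac2, called lower with both, thus differed in direction from the called genes of the interval and from Ncf4 at its far end. Genes on the other side of Rac2 were not examined. Csf2rb and Csf2rb2 are close paralogs, and how reads shared by both were divided between them is not given in the sources used here.

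Cyba is overlapped by Gm20388 on the other strand, with 0 of its 1039 exonic bases shared. Gm20388 was at 1597 to 2303 normalised counts in the inhibitor table, and it rose with UNC1999 (log2 change 0.39, limma adjusted p = 1.68e-06) and in UNC1999 against JQEZ5 (0.32, adjusted p = 2.69e-05) and with H499A (0.15, adjusted p = 0.00882), where Cyba was higher too. It was not called with JQEZ5 (0.07, adjusted p = 0.288) or with WT (0.06, adjusted p = 0.316), with which Cyba rose. Gtf2ird2 on the other strand shares 408 of the 3663 exonic bases of Ncf1. Whether strand was used in counting is not given in the sources used here, so reads in the shared stretch cannot be assigned. Gtf2ird2 was at 108 to 187 normalised counts in the inhibitor table, far under Ncf1, and none of its 7 differences passed the test.

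Across the 21 libraries, with each table centred on its own mean, the genes with the pattern most like each subunit were found by the root mean square (RMS) difference in log2 level among 8468 genes tested in all tables. For Cybb these were Tlr13 (RMS difference 0.135), Plin2 (0.149) and Itgb5 (0.162). For Cyba they were Card19 (0.0513), Atp6v0c (0.0556) and Bst2 (0.0701), and for Ncf4 Vmp1 (0.0566), Cstb (0.0622) and Vim (0.0632). For Ncf1 they were Top3a (0.0374), Tnfrsf13b (0.0401) and Fancg (0.0415), and for Rac2 Rps6ka1 (0.0501), Pxn (0.0517) and Adrbk1 (0.0529). A gene that stayed at the table means throughout would differ from a subunit by that subunit's own RMS, which was 0.403 for Cybb, 0.166 for Cyba, 0.155 for Ncf4, 0.105 for Rac2 and 0.0864 for Ncf1. These values describe the same libraries as the tests above and share their group structure and depth.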

How the data were processed

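RNA was sequenced from cultured mouse AML cells in 3 experiments. Per the submitters' processing notes the tools were STAR 2.4.2, Salmon 0.1.19 and DESeq2 1.38.2, with mm10. The authors deposited variance-stabilised log2 values, which compress low genes towards each table's lowest value. That transformation was undone to give normalised read counts, whole multiples of 1 read step for 100% of values (tolerance 0.05), and from these the depth. Groups came from titles and treatments. The deposited log2 values of 14178, 15623 and 13949 genes were filtered (1 log2 unit or more above the minimum, in a number of libraries equal to the smallest group's), leaving 10694, 10810 and 9458. Tests used limma 3.58.1 (R 4.3.3), a model of group means with trended eBayes, Benjamini-Hochberg adjustment over all tested genes and a threshold of 0.05. Fold changes are ratios of mean normalised counts. On simulated data, changes of 0.25 log2 units were recovered in 66%, 50% and 82% of 50 genes for UNC1999, shKdm5b and WT. Only 50 genes per size of change were altered there, a smaller share than was called in the data, so recovery in the data may differ. Members and gene lists were chosen with earlier results of these data known. Beyond the members, at most 4 called genes of lowest adjusted p per list and comparison could be named. Which of 2 library kits made which library is not stated in the labels. Alternatives covered filters, scaling, models, pseudocounts, the replicate block and each library left out. List counts without shKdm5b 1 were added after seeing the data. Some genes of the lists are not reported here and were left out of the counts.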

Additional observations from a re-analysis of the deposited data

How the results depend on the processing

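Of 635 values of the 5 genes under alternatives, 615 kept their direction and side of the threshold, 9 lost the call, 9 gained one and 2 changed sign. The sign changes were Ncf1 in WT against H499A, at -0.0031 after median centring (limma adjusted p = 0.924) and between -0.0024 and 0.027 when each library was left out. The knockdown result was the least stable: 0 of the 5 genes were called with no filter or with robust eBayes, and 0 to 3 when each library was left out, with 1907 to 5556 of all genes called. No scaling moved the median of all genes by over 0.1.

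The replicate numbers did not pair the samples: deviations of same-numbered libraries correlated at -0.08 to 0.16 in the inhibitor table, -0.15 to 0.22 in the knockdown and -0.05 to -0.01 in the overexpression table. In the knockdown some pairs of unlike number were higher, shEV 2 with shKdm5b 3 at 0.245 and shEV 3 with shKdm5b 2 at 0.259. Pairing under other numbers was not tested. With a replicate block 0 of the 5 genes were called in the knockdown (Ncf1 adjusted p = 0.102) and 3491 of all genes, and no call on these 5 genes changed in the other 6 comparisons. Limits are 2 or 3 libraries per group, 1 line per experiment, and tables normalised separately.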
